A study of Mus musculus with 11 samples.

Results

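Lgr4, Lgr5, Lgr6, Rspo2, Rspo3, Znrf3, Rnf43, Axin2 and Fzd9 are 9 receptor, R-spondin and feedback genes of canonical Wnt signalling. They were taken by symbol from the 4 expression tables, 1 per age, of a mouse cochlear duct study. All 9 are protein-coding genes and were listed at every age, out of 24898 genes in at least 1 table and 18667 in all of them. In this pathway a Wnt protein binds a Frizzled receptor such as Fzd9, and β-catenin is then spared from destruction. Znrf3 and Rnf43 are membrane ubiquitin ligases that remove Frizzled receptors from the cell surface. R-spondins (Rspo2 and Rspo3) are secreted proteins that bind Lgr4, Lgr5 or Lgr6 together with these ligases and so clear the ligases, which leaves more Frizzled in place. Axin2, a scaffold of the β-catenin destruction complex, is switched on by the pathway that it damps, and Znrf3, Rnf43 and Lgr5 are known targets of the pathway as well. In the cochlea Lgr5 marks supporting cells that keep some capacity to divide and to form hair cells in the newborn, and it marks part of the prosensory domain before them.

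The study dissected cochlear ducts of wild-type CD1 mice, freed the floor epithelium with enzyme and captured single cells by 10x Chromium, of which the libraries analysed here are 2 at embryonic day 14 (E14), 3 at E16, 4 at postnatal day 1 (P1) and 2 at P7 (numbered 4 and 5). No animal was treated, and no transgene or mutation was used. Each library pooled the ducts of several pups of either sex, from 1 pregnant female at the embryonic ages, so a library is a pool and not an animal, and age cannot be told apart from litter and collection. The comparisons ask where each gene was used and when its level changed: genes were compared between cell classes within an age and within a class between ages.

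Libraries held 1247 to 5598 cells with medians of 2478 to 5647.5 unique molecular identifiers (UMIs) per cell, and any pair of libraries shared at most 36 cell barcodes and at most 0.958% of those of the smaller library. A level is a mean CPM: each cell's UMIs of the gene were scaled to 1000000 UMIs per cell, and the cells of 1 class and library were averaged. As no cell labels were used, cells were placed in classes by marker lists that hold none of the 9 genes. Hair cell-like cells (HCs) numbered 54, 542, 979 and 235 at E14, E16, P1 and P7, and Kölliker's organ-like cells (KO) 1196, 2191, 3100 and 532. Prosensory-like cells numbered 548 at E14 and 771 at E16. Supporting cells (SCs) were 1627 at P1 and 346 at P7, the sum of pillar and Deiters' cell-like cells (767 and 155) and inner phalangeal cell-like cells (860 and 191). The inner phalangeal list holds Fgf3, which is also known from the third row of Deiters' cells, and 226 of the 860 and 11 of the 191 cells had an Fgf3 UMI, so this class can hold some Deiters' cells. It also holds Fabp7, which the study saw at the lateral border of KO, and Prss23, which it found in some KO cells. At P1 these cells had a median of 3 of their own 6 markers and 8 of the 14 KO markers. Pillar and Deiters' cells had 4 of the 14 and KO cells 12. How many KO cells the class holds was not tested. Interdental-like, lateral ridge-like and Oc90-gated cells were kept as well, and 34.4% to 62.1% of a library stayed unplaced. Each class is a range on a score: at P1, 908 KO cells lay within 0.25 above the lead over the next class that a place needs, and 603 cells within 0.25 below it.

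At P1, Atoh1 and Hes5, which were among the markers kept out of the gates, followed the classes. Atoh1, the transcription factor of HC fate, averaged 631 CPM in P1 HCs and 0.914 to 14.8 CPM in pillar and Deiters', inner phalangeal and KO cells. Hes5, a Notch target, averaged 1640 CPM in pillar and Deiters' cells and 787 CPM in inner phalangeal cells at P1 against 16.2 CPM in KO. At P7 the classes were less clean. KO cells carried 1378 to 1813 CPM of the 6 inner phalangeal marker genes (5 above 0 in both libraries, Fgf3 at 0) against 73.3 to 129 CPM at P1, and SCs carried 372 to 819 CPM of the 8 glial markers (6 above 0 in both, Mag at 0) and 134 to 443 CPM of the 7 mesenchymal markers (4 above 0 in both, Prrx1 at 0). P1 SCs held 6.68 to 14.7 CPM and 0.659 to 2.80 CPM of those 2 lists. P7 lateral ridge cells carried 1634 to 1886 CPM of the inner phalangeal list and 14853 to 15897 CPM of the KO list. At P1 they carried 358 to 711 CPM and 3228 to 6203 CPM. The part of such mixed markers in the P7 results was not tested. Fewer cells of a type and less RNA per cell can be told apart here only as far as the gates separate the types.

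Over 16 comparisons and 109 tests of a member, limma called 33 at an adjusted p of 0.05, 9 of them for Fzd9, 7 for Lgr5, 5 for Rspo2, 4 each for Rspo3 and Znrf3, 2 each for Lgr6 and Axin2, and none for Lgr4 and Rnf43 (5 and 14 tests). Genes with a mean under 5 CPM over the class means of a fit were not tested, and comparisons of 1 age can share a class, as successive ages do a time. Within an age, classes outside a comparison count in that mean too, so which members were tested depends on them. At P7 Rspo2 was tested between SCs and KO on 1 UMI in each class. At P1 Lgr6 was not tested between them, at 17.1 and 0.104 CPM. Prosensory cells against KO called 3 of the 7 members tested at E14, where 6.57% of all tested genes were called, and 4 of 8 at E16, where 8.09% were. The study had picked Fzd9 as a lateral prosensory gene from E14 cells of these data, so its prosensory calls are not independent. The SC against KO comparison called 5 of 6 at P1 (11.3% of all tested genes) and 2 of 6 at P7 (6.94%). Against HCs, 2 of 8 members were called in E16 prosensory cells (18.8% of all tested genes), 4 of 6 in P1 SCs (41.5%) and 2 of 6 in P7 SCs (45.1%), all higher, where 9.75%, 20.5% and 23.2% of all tested genes were called higher. Pillar and Deiters' against inner phalangeal cells at P1 called 2 of 7 (11.8%). With at least 20 cells per class, more of all genes were called there and for P1 SCs against KO, as given at the end. In KO, 1 of 8 was called between E14 and E16 (9.53%), 3 of 8 between E16 and P1 (6.07%) and 2 of 5 between P1 and P7 (18.5%). In prosensory cells 1 of 6 was called from E14 to E16 (3.55%), and in SCs 2 of 6 from P1 to P7 (9.31%). No member above the filter was called between lateral and other prosensory cells at E14 (0 of 7 by limma, with 1 at an unadjusted p of 0.05, and 2.66% of all tested genes called) or E16 (0 of 8, with 1 at an unadjusted p of 0.05, and 2.61%), or between medial and other KO cells at P1 (0 of 7, with 1 at an unadjusted p of 0.05, and 0.59%). Lgr6, which lay below the filter there, is given further on.

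**Figure D1:**
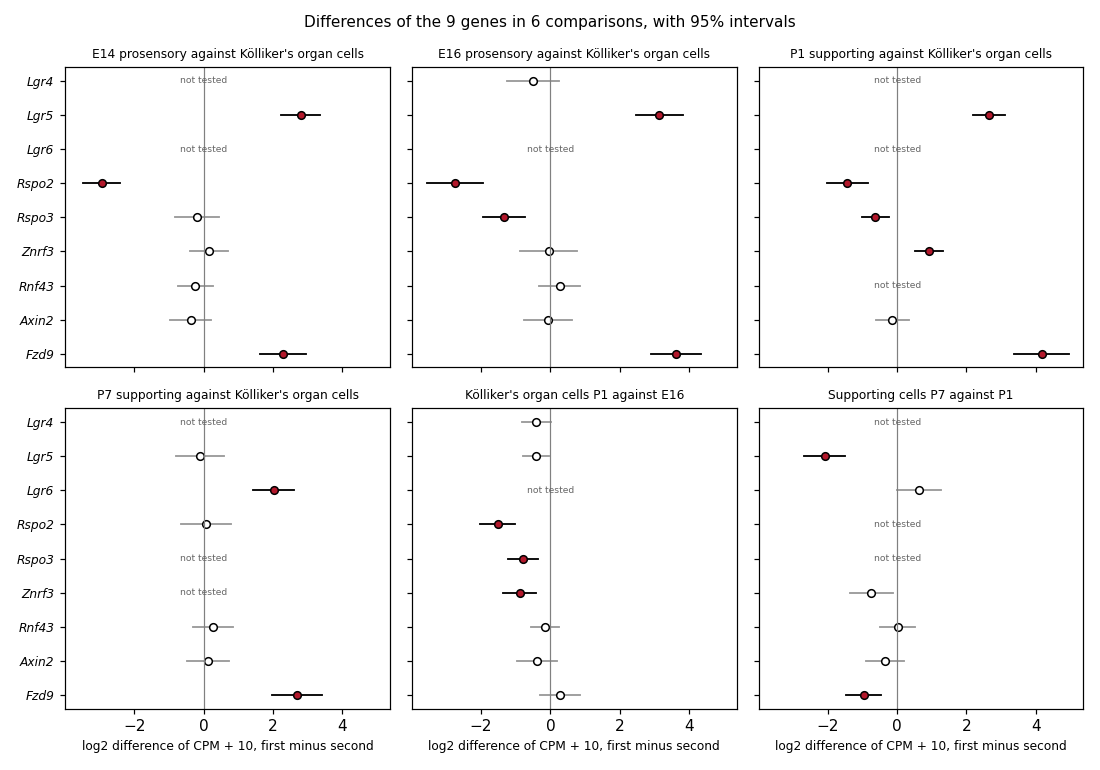
Differences of the 9 genes in 6 comparisons, as the log2 difference of CPM + 10 (first class minus second, horizontal axis) with its 95% interval; filled points have a limma adjusted p of 0.05 or less and open points do not. Lgr5 and Fzd9 lie to the right and Rspo2 to the left in prosensory cells and P1 supporting cells against Kölliker's organ, and at P7 Lgr5 lies at -0.11.

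Lgr5 (chromosome 10, 115450311 to 115587780, minus strand, GRCm38), a leucine-rich repeat receptor for R-spondins, was high in prosensory cells, E14 HCs and newborn SCs and low in KO until P1. At E14 prosensory cells of libraries 1 and 2 held 99.7 and 104 CPM, and KO held 5.69 and 6.48 CPM. The E16 prosensory cells held 208, 181 and 124 CPM in libraries 1 to 3 and KO 10.8, 11.1 and 8.61 CPM. P1 SCs held 66.3, 87.6, 104 and 83.2 CPM in libraries 1 to 4 against 5.47, 5.63, 4.46 and 4.88 CPM in KO. No library of one class reached those of the other at these ages. The log2 differences from KO were 2.80 (SE 0.26) at E14, 3.14 (SE 0.32) at E16 and 2.64 (SE 0.22) at P1, with limma's adjusted p of 1.25e-05, 4.66e-07 and 4.79e-09.

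At P7 no such difference was detected. SCs held 17.1 and 8.09 CPM of Lgr5, KO 11.99 and 16.1 CPM and HCs 11.2 and 11.3 CPM, so the KO and HC libraries all lay within the range of the SC libraries. The difference between SCs and KO was -0.11 (95% interval -0.81 to 0.58, limma's adjusted p = 0.917), an interval that ends well below the P1 value. Within SCs, Lgr5 fell by 2.09 on the log2 scale from P1 to P7 (SE 0.28, limma's adjusted p = 0.000223). Both kinds of SC had lower values at P7, without overlap and not tested separately. Pillar and Deiters' cells went from 64.6 to 93.9 CPM at P1 to 5.39 and 11.2 CPM at P7, and inner phalangeal cells from 67.4 to 115 CPM to 10.4 and 21.7 CPM. With the cells that had an Fgf3 UMI left out, a choice made after seeing the data, inner phalangeal cells held 64.1, 117, 91.0 and 74.8 CPM of Lgr5 at P1 and 18.3 and 10.7 CPM at P7. Other markers moved with age in SCs as well, where the cycling list went from 15.0 to 41.5 CPM at P1 to 65.7 to 187 CPM at P7 and the neuron list from 6.91 to 12.7 CPM to 39.6 to 41.7 CPM. The prosensory list went from 3224 to 4263 CPM to 2148 to 2628 CPM, the hair cell list from 187 to 357 CPM to 400 to 454 CPM and the interdental list from 88.1 to 164 CPM to 178 to 210 CPM, and the part of these markers was not tested. Pillar and Deiters' cells made up 40.6% to 52.2% of SCs in a library at P1 and 43.4% and 46.3% at P7. The change from P1 to P7 in the SC minus KO difference was -2.76 (SE 0.39, limma's adjusted p = 3.60e-05, with 4.1% of all tested genes called), and that in the SC minus HC difference was -1.91 (SE 0.39, limma's adjusted p = 0.00108, with 10.3% called). No other member was called in these 2 interactions or in those of the prosensory minus KO difference (0.276% of genes called) and the prosensory minus HC difference (4.97%) from E14 to E16, 28 tests in all. In KO, Lgr5 went the other way, from 4.46 to 5.63 CPM at P1 to 11.99 and 16.1 CPM at P7. That increase was 0.67 (SE 0.18, limma's adjusted p = 0.0244). It lost its call with either P7 library left out (0.79 without library 4 and 0.54 without library 5). The call was also lost without P1 library 2 or 3 (0.68 and 0.65, limma's adjusted p = 0.0607 and 0.0916). With no filter on low values (adjusted p = 0.0639) and with a stricter gate (0.52, adjusted p = 0.133) it was lost too. P7 KO carried inner phalangeal markers, as did P7 lateral ridge, glia-like and mesenchyme-like cells. The prosensory list also went from 536 to 1021 CPM in P1 KO to 1970 to 2263 CPM in P7 KO, and the pillar and Deiters' list from 48.6 to 94.3 CPM to 221 to 246 CPM, and their part was not tested.

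The share of cells with an Lgr5 UMI followed the levels. With every cell thinned to 1500 UMIs, 13.9% of E14 and 19.5% of E16 prosensory cells had at least 1 Lgr5 UMI (exact 95% intervals 11.1% to 17.0% and 16.7% to 22.4%), and 10.2% of P1 SCs (8.77% to 11.8%) but 1.73% of P7 SCs did (0.639% to 3.74%). In KO the shares were 0.753%, 1.28%, 0.613% and 2.26% at the 4 ages, so the P7 share in SCs was no higher than that in KO. Without thinning, 28.9% of P1 and 4.91% of P7 SCs had one, at medians of 5593 and 5106.5 UMIs. As a measure of free RNA, interdental cells, which lie far from the sensory domain, had thinned shares of 0.539%, 0.722% and 0.0972% from E14 to P1, at medians of 3563, 2984 and 5545 UMIs. The shares in HCs were 18.5%, 8.30% and 1.94% at these ages, at medians of 5058.5, 3451.5 and 6667 UMIs. At P7 glia-like cells had a share of 1.90% (0.232% to 6.71%) at a median of 3600 UMIs, so that the P7 shares and levels of Lgr5 in SCs, KO and HCs could not be told apart from free RNA. These intervals cover counting error only.

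Lgr5 UMIs were also found outside the prosensory and supporting cells. In HCs it averaged 114, 68.3, 14.6 and 11.2 CPM at the 4 ages, and the E14 HC libraries (99.8 and 128 CPM) overlapped the prosensory ones. HCs also carried the prosensory list, at 2932 to 3434 CPM at E14, where prosensory cells carried 4688 to 4900 CPM. In HCs that list was at 1176 to 1299 CPM at E16, 509 to 776 CPM at P1 and 361 to 394 CPM at P7. The part of these markers in the Lgr5 levels of HCs was not tested. The E16 difference between prosensory cells and HCs was 1.18 (SE 0.32, limma's adjusted p = 0.0114), which was lost without library 2 or 3 (1.16 and 1.41, adjusted p = 0.101 and 0.0620) or with a pseudocount of 2 CPM (1.27, adjusted p = 0.168). Leaving out library 2 or 3 left 1219 or 1141 genes of all called in place of 2120. At P1 SCs stood above HCs (9.06 to 21.6 CPM) by 1.97 (SE 0.22, limma's adjusted p = 7.34e-08). Lateral ridge cells, on the far side of the sensory domain, averaged 42.7, 49.7, 26.7 and 11.1 CPM, the last in cells that also carried 14853 to 15897 CPM of the KO list. Among prosensory cells, the tertile with the highest lateral marker score held 127 and 162 CPM at E14 and the lowest tertile 67.5 and 73.2 CPM, a difference of 0.94 (95% interval 0.28 to 1.59) that did not pass adjustment (limma's adjusted p = 0.128). At E16 the same tertiles averaged 187 and 159 CPM and their ranges overlapped. In KO the tertile with the lowest medial score had higher Lgr5 means than the most medial tertile, at 10.9 and 1.16 CPM at E14, 19.7 and 6.19 CPM at E16 and 10.1 and 2.93 CPM at P1. At P7 their ranges overlapped (means of 12.03 and 11.6 CPM, with 18.8 CPM in the middle tertile), and the P1 difference did not pass adjustment (-0.62, 95% interval -1.08 to -0.16, limma's adjusted p = 0.562). With a stricter gate the P1 mean of the least medial tertile was 3.79 CPM in place of 10.1 CPM, the P7 means of the least and the most medial tertile were 7.72 and 4.94 CPM, and that of P7 lateral ridge cells was 6.06 CPM in place of 11.1 CPM.

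**Figure D2:**
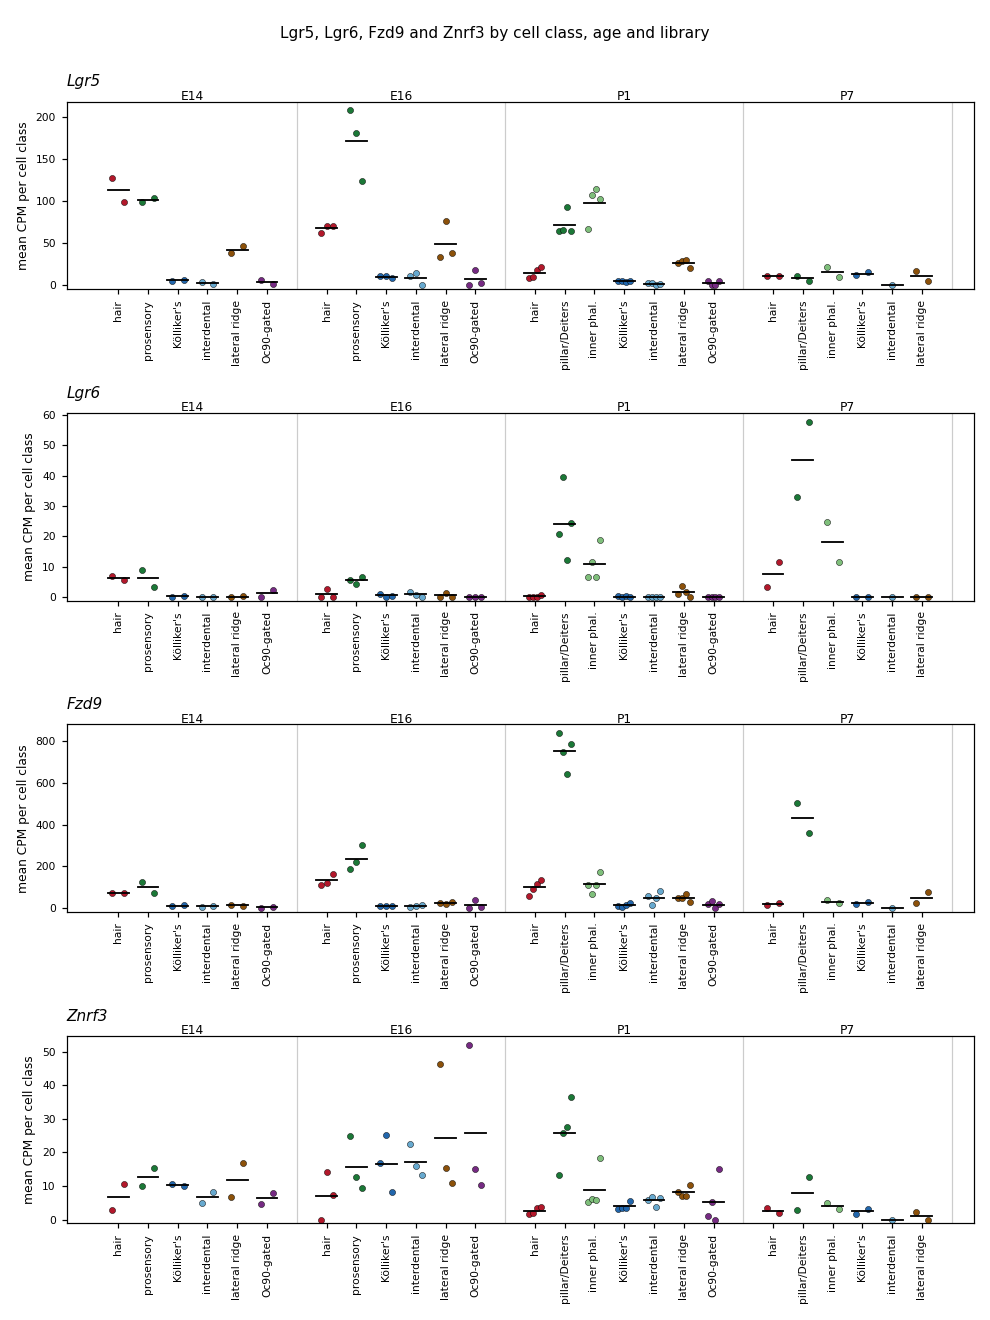
Mean CPM (vertical axis, own scale per gene) of Lgr5, Lgr6, Fzd9 and Znrf3 by cell class, with 1 point per library and a bar at the mean, in 4 blocks from E14 to P7. Lgr5 is high in prosensory cells and, at E14, as high in hair cells, stands out in both kinds of P1 supporting cell and is at or below 21.7 CPM in every class and library at P7; Fzd9 stands out in pillar and Deiters' cells at P1 and P7.

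Lgr6 (chromosome 1, 134983301 to 135105276, minus strand), a close relative of Lgr5, was low in embryonic prosensory cells and HCs and was then found in SCs. E14 prosensory cells held 8.91 and 3.29 CPM, from 18 UMIs, and E16 prosensory cells 5.66, 4.27 and 6.40 CPM, from 20 UMIs. E14 HCs averaged 6.18 CPM, from 4 UMIs. Within the prosensory cells the lateral tertile held 15 of the 18 UMIs at E14 (20.3 and 11.7 CPM), the middle tertile 2 and the lowest tertile 1 (1.10 and 0 CPM). The ratio of the summed levels of the lateral and lowest tertiles was 11.5 with a counting interval of 1.78 to 486. At E16 the lateral tertile held 12 UMIs (0, 10.2 and 14.4 CPM), the middle tertile 7 and the lowest 1, and the first 2 averaged 8.20 and 6.72 CPM. By P1 pillar and Deiters' cells held 20.7, 39.7, 12.04 and 24.4 CPM and inner phalangeal cells 6.48, 11.5, 6.68 and 18.8 CPM, while 1 UMI was found in 979 HCs and 2 in 3100 KO cells. Without the cells that had an Fgf3 UMI, inner phalangeal cells held 4.79, 8.68, 1.21 and 15.6 CPM.

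The low overall level kept Lgr6 below the filter in most comparisons, and it was then tested without a filter on low values. Without it P1 SCs differed from KO by 1.38 (limma's adjusted p = 4.78e-07, 6.54% of genes called) and from HCs by 1.38 (adjusted p = 5.52e-08, 25.3% called). Without the filter too, E16 prosensory cells differed from KO by 0.56 (adjusted p = 0.00247, 4.0% called) and from HCs by 0.52 (adjusted p = 0.00174, 10.8% called), the E14 lateral tertile differed from the lowest by 1.28 (adjusted p = 0.00427, 1.05% called), and P1 pillar and Deiters' from inner phalangeal cells by 0.69 (adjusted p = 0.00508, 6.5% called). The same test gave 0.64 for E14 prosensory cells against KO (adjusted p = 0.0933, 3.07% called) and 0.72 for the tertiles at E16 (adjusted p = 0.105, 0.982% called). The E16 calls rest on 20 UMIs against 2 in KO and 4 in HCs, and the E14 tertile call on 15 UMIs against 1. Their p-values use a spread pooled over classes, including KO, where Lgr6 lies near 0. None of these unfiltered calls was refitted with a library left out or with another gate.

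At P7 Lgr6 did not follow Lgr5 down. SCs held 28.3 and 33.0 CPM against 9.38 to 25.0 CPM at P1, a difference of 0.63 (95% interval -0.01 to 1.26, limma's adjusted p = 0.238). Pillar and Deiters' cells held 32.9 and 57.8 CPM and inner phalangeal cells 24.8 and 11.6 CPM (16.5 and 11.8 CPM without those that had an Fgf3 UMI). KO had no Lgr6 UMI, so that the summed SC level was at least 42.1-fold higher when KO is set at a floor of 3 UMIs over the class. SCs were above KO by 2.02 (SE 0.28, limma's adjusted p = 0.000128) and above HCs (3.34 and 11.4 CPM) by 1.26 (SE 0.28, limma's adjusted p = 0.00132). P7 glia-like cells, of which SCs carried markers, held 3 Lgr6 UMIs (17.1 and 2.46 CPM), and pillar and Deiters' cells at P7 held 65.

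Lgr4 (chromosome 2, 109917647 to 110014257, plus strand), the third receptor, was low in every class. Its means ran from 0 to 12.8 CPM over all classes and ages, the highest in E16 lateral ridge cells (18.6, 17.9 and 2.05 CPM). None of its 5 tests passed. P1 library 4 stood apart, with 7.79 CPM over all its cells against 1.89, 1.46 and 2.13 CPM in libraries 1 to 3, and it was the highest in HCs (12.5 against 0 to 2.57 CPM), in KO (7.11 against 1.38 to 3.05 CPM) and in SCs (9.24 against 0.398 to 3.41 CPM).

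Rspo2 (chromosome 15, 43020794 to 43170826, minus strand), an R-spondin ligand, lay medial to the sensory domain, in KO and interdental cells. KO held 90.7 and 83.4 CPM at E14 and 74.6, 91.5 and 66.9 CPM at E16. The prosensory cells held 4.29 and 1.21 CPM and then 0, 6.83 and 2.58 CPM. All KO libraries were far above all prosensory libraries. The log2 differences, prosensory minus KO, were -2.94 (SE 0.25, limma's adjusted p = 5.70e-06) and -2.76 (SE 0.39, limma's adjusted p = 3.31e-05). In E14 HCs no Rspo2 UMI was found, and summed KO levels were at least 9.54-fold higher by a floor of 3 UMIs over that class. Within KO at E14 the most medial tertile held 141 and 108 CPM and the least medial 49.2 and 63.3 CPM. By P1 these tertiles held 35.1, 13.3, 17.8 and 26.4 CPM and 25.5, 20.6, 16.0 and 11.9 CPM, with a difference of 0.20 (95% interval -0.37 to 0.76, limma's adjusted p = 1.00).

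Rspo2 then fell in KO, while interdental cells, for which age was not tested, still held it at P1. KO held 30.1, 17.0, 19.3 and 16.8 CPM at P1, a fall by 1.52 on the log2 scale from E16 (SE 0.23, limma's adjusted p = 0.00180). At P7 KO held 0.291 and 0 CPM, a single UMI in 532 cells, and the fall from P1 was -1.58 (SE 0.23, limma's adjusted p = 0.000580). The added 10 CPM shortens that value: from 319 UMIs against 1, the ratio of summed levels was 61.8, with a counting interval of 11.01 to 2447. In interdental cells Rspo2 was 96.3 and 70.8 CPM at E14, 124, 141 and 112 CPM at E16 and 85.7, 86.5, 114 and 89.4 CPM at P1. The 1 P7 library with at least 5 interdental cells held 42.2 CPM, from 5 UMIs. Its 14 interdental cells carried 1597 CPM of the interdental list, against 4966 to 8607 CPM in P1 interdental cells. They carried 22813 CPM of the KO list, against 17299 to 27772 CPM in P1 interdental cells and 18434 to 18661 CPM in P7 KO. How far these P7 cells are interdental cells was not tested. P1 SCs held 0 to 3.41 CPM, below KO in each of the 4 libraries by 1.43 (SE 0.28, limma's adjusted p = 0.000839). Oc90-gated cells averaged 21.5, 58.9 and 28.3 CPM from E14 to P1, with E16 library 1 at 131 CPM and its other 2 libraries at 22.8 and 22.9 CPM.

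In KO, proliferation markers and depth moved with age. The summed level of 8 cycling genes was 713 to 850 CPM at E14, 45.0 to 89.1 CPM at E16, 19.5 to 32.2 CPM at P1 and 37.9 to 46.3 CPM at P7, with 8, 8, 6 and 5 of the 8 above 0 in every library and none at 0 in all. Median UMIs per KO cell were 3072 to 3190 at E14, 2363 to 2776 at E16, 3628 to 5415 at P1 and 4568 to 5467 at P7. Marker lists of neighbouring classes moved in KO from P1 to P7 too: the interdental list went from 519 to 757 CPM to 202 to 226 CPM, the lateral ridge list from 337 to 451 CPM to 1167 to 1357 CPM and the mesenchymal list from 0 to 0.156 CPM to 93.0 to 148 CPM. The part of these markers and of depth in the changes with age was not tested. After thinning to 1500 UMIs, Rspo2 was seen in 11.2% of KO cells at E14 (exact 95% interval 9.47% to 13.1%), 9.50% at E16 (8.30% to 10.8%), 2.71% at P1 (2.17% to 3.34%) and 0 of 532 cells at P7, which by a limit of 3 counts allows a share of up to 0.564% of cells with a UMI (exact 95% interval up to 0.691%). The unthinned shares were 24.2%, 16.7%, 7.65% and 0.188%.

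Rspo3 (chromosome 10, 29452416 to 29535867, minus strand), the second R-spondin, was highest in interdental cells at P1. Those cells held 5.97 and 21.1 CPM at E14, 20.6, 35.8 and 17.7 CPM at E16 and 72.2, 53.1, 93.3 and 66.2 CPM at P1, so no P1 library reached down to the earlier ages. KO held 1.93 and 5.65 CPM, then 22.2, 17.8 and 11.4 CPM, then 6.34, 5.30, 6.14 and 4.39 CPM, and no UMI at P7. From E14 to E16 the change in KO was 0.97 (SE 0.25, limma's adjusted p = 0.0378) and from E16 to P1 -0.78 (SE 0.20, limma's adjusted p = 0.0313). Both calls were lost with no filter on low values (adjusted p = 0.116 and 0.112) and with a stricter gate (0.84 and -0.83, adjusted p = 0.132 and 0.0834). The first was lost without E14 library 1 or 2 (0.77 and 1.16, adjusted p = 0.427 and 0.186) or E16 library 1 or 2 (0.83 and 0.94, adjusted p = 0.0729 and 0.123), and the second without E16 library 1 or 2 (-0.65 and -0.76, adjusted p = 0.148 and 0.141) or P1 library 2, 3 or 4 (-0.78, -0.80 and -0.75, adjusted p = 0.0948, 0.0888 and 0.0511) and with the replicate number as a block (-0.75, adjusted p = 0.0678). From P1 to P7, tested without a filter on low values, the change was -0.63 (limma's adjusted p = 0.00830, with 10.4% of genes called), and the summed P1 level was at least 5.03-fold higher by the floor of 3 UMIs.

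**Figure D3:**
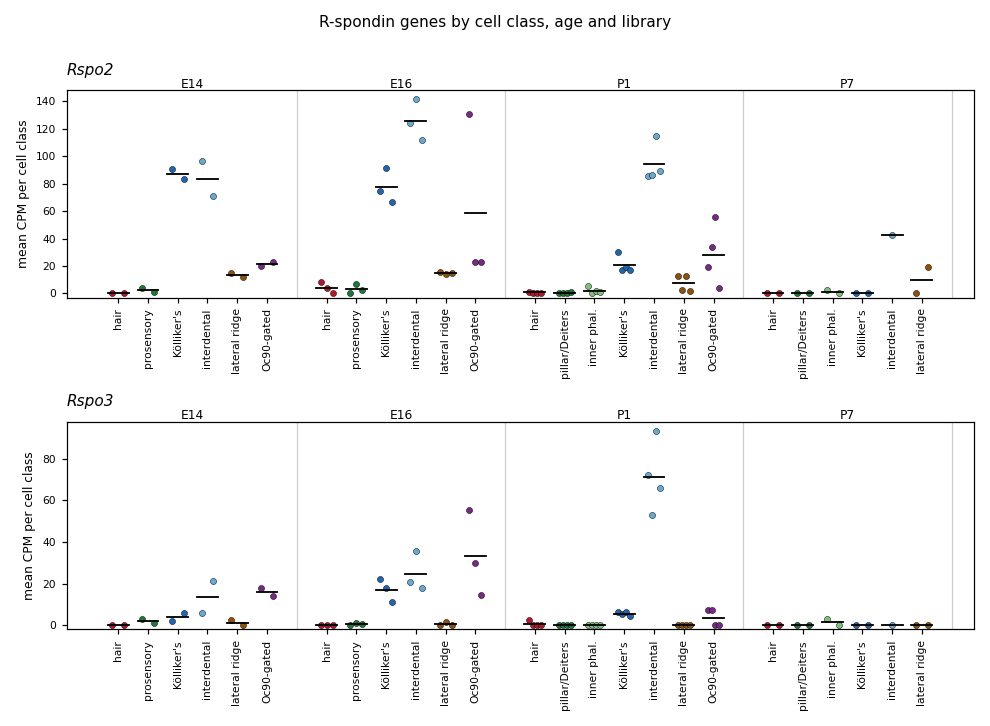
Mean CPM (vertical axis) of Rspo2 and Rspo3 by cell class, with 1 point per library and a bar at the mean, in 4 blocks from E14 to P7. Rspo2 is high in Kölliker's organ and interdental cells at E14 and E16 and at 16.8 to 30.1 CPM in Kölliker's organ at P1, and Rspo3 reaches 53.1 to 93.3 CPM in P1 interdental cells.

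Few Rspo3 UMIs were found in prosensory cells, HCs and SCs. E16 prosensory cells held 3 UMIs (0, 0.994 and 0.503 CPM), -1.35 below KO on the log2 scale (SE 0.29, limma's adjusted p = 0.00324), and the call was lost without library 2 (-1.36, adjusted p = 0.0904). At P1, 1 UMI was found in 1627 SCs and 449 UMIs in interdental cells. The P1 difference between SCs and KO, -0.63 (SE 0.19, limma's adjusted p = 0.0266), was lost with any 1 of libraries 1 to 4 left out (-0.61, -0.64, -0.61 and -0.66, adjusted p = 0.138, 0.0654, 0.0725 and 0.106) and with UMIs summed over the class (-0.59, adjusted p = 0.0795). Oc90-gated cells held 18.0 and 14.0 CPM at E14 and 55.2, 29.8 and 14.7 CPM at E16.

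Znrf3 (chromosome 11, 5276324 to 5444847, minus strand), a ligase that removes Frizzled receptors, was found in every embryonic class and stood out in pillar and Deiters' cells at P1. The means of E14 classes ran from 6.31 to 12.8 CPM, and those of E16 classes from 7.13 to 25.8 CPM. Pillar and Deiters' cells at P1 held 13.2, 25.7, 27.7 and 36.4 CPM, and inner phalangeal cells 5.10, 5.99, 5.86 and 18.3 CPM. Library by library the first were higher in 4 of 4, by 0.94 (SE 0.20, limma's adjusted p = 0.00128), although the ranges overlapped. P1 SCs were above KO (3.27 to 5.63 CPM) by 0.92 (SE 0.19, limma's adjusted p = 0.00163) and above HCs (1.70 to 3.79 CPM) by 1.05 (SE 0.19, limma's adjusted p = 9.17e-05). At E14 and E16 prosensory cells and KO differed by 0.16 (95% interval -0.39 to 0.70) and -0.05 (-0.87 to 0.77).

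Znrf3 in KO fell by 0.89 on the log2 scale from E16 (16.7, 25.2 and 8.18 CPM) to P1 (SE 0.22, limma's adjusted p = 0.0294). That call was lost without E16 library 1 or 2 (-0.86 and -0.66, adjusted p = 0.123 and 0.171), without P1 library 2 or 3 (-0.87 and -0.87, adjusted p = 0.0846 and 0.0884), with no filter on low values (adjusted p = 0.112) and with a stricter gate (-0.87, adjusted p = 0.120). At P7 pillar and Deiters' cells held 2.93 and 12.7 CPM, from 8 UMIs, and SCs as a whole 4.09 to 7.53 CPM, a change from P1 of -0.74 (95% interval -1.36 to -0.12, limma's adjusted p = 0.138).

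Rnf43 (chromosome 11, 87662722 to 87735539, plus strand), the other ligase of this kind, had its highest means in lateral ridge cells, 17.8 and 10.2 CPM at E14 and 30.2, 25.8 and 12.1 CPM at E16. From E14 to P1 its lowest class means were those of HCs (2.61, 3.07 and 1.27 CPM), and in KO it was 7.25, 7.48, 5.93 and 3.39 CPM. None of its 14 tests passed. Prosensory cells of E16 held 19.3, 7.69 and 8.02 CPM against 7.21, 2.01 and 0 CPM in HCs (0.73, 95% interval 0.14 to 1.31, limma's adjusted p = 0.0852).

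Axin2 (chromosome 11, 108920349 to 108950783, plus strand), the feedback gene most used as a readout of the pathway, was called between prosensory cells or SCs and KO at none of the 4 ages. KO held 23.1 and 20.0 CPM at E14, 27.6, 25.3 and 11.8 CPM at E16, 10.7, 6.99, 16.1 and 23.3 CPM at P1 and 4.08 and 6.30 CPM at P7. Prosensory cells held 15.8 and 12.9 CPM and then 18.1, 12.5 and 29.4 CPM, and SCs 10.6, 7.38, 10.3 and 18.8 CPM and then 8.22 and 5.22 CPM. The 4 differences from KO lay between -0.37 and 0.14, and their 95% intervals between -0.97 and 0.74. At these levels a library holds few UMIs of the gene, 14 in all P7 SCs, which limits what could be seen.

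Lower Axin2 levels were called in HCs at E16 and P1. They held 17.7 and 9.74 CPM of Axin2 at E14 but 1.78, 6.26 and 0 CPM at E16 and 0, 0.843, 3.59 and 2.66 CPM at P1. Prosensory cells at E16 stood above them by 1.23 (SE 0.33, limma's adjusted p = 0.0106), which was lost without library 3 (0.86, adjusted p = 0.262), and P1 SCs by 0.87 (SE 0.23, limma's adjusted p = 0.00340). At P7 HCs averaged 3.26 CPM, and SCs minus HCs was 0.33 (95% interval -0.28 to 0.94, limma's adjusted p = 0.370). E16 library 3 has no Axin2 UMI in HCs. E14 HCs also carried 2932 to 3434 CPM of the prosensory list, against 1176 to 1299 CPM in E16 HCs, and its part was not tested. Markers of blood, immune and vessel cells reached 1555 CPM in E16 HCs and 834 CPM in E16 prosensory cells in the highest library (3 of the 8 genes above 0 in every library, Kdr and C1qb at 0), against lowest values of 65.2 and 63.6 CPM, and their part was not tested.

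**Figure D4:**
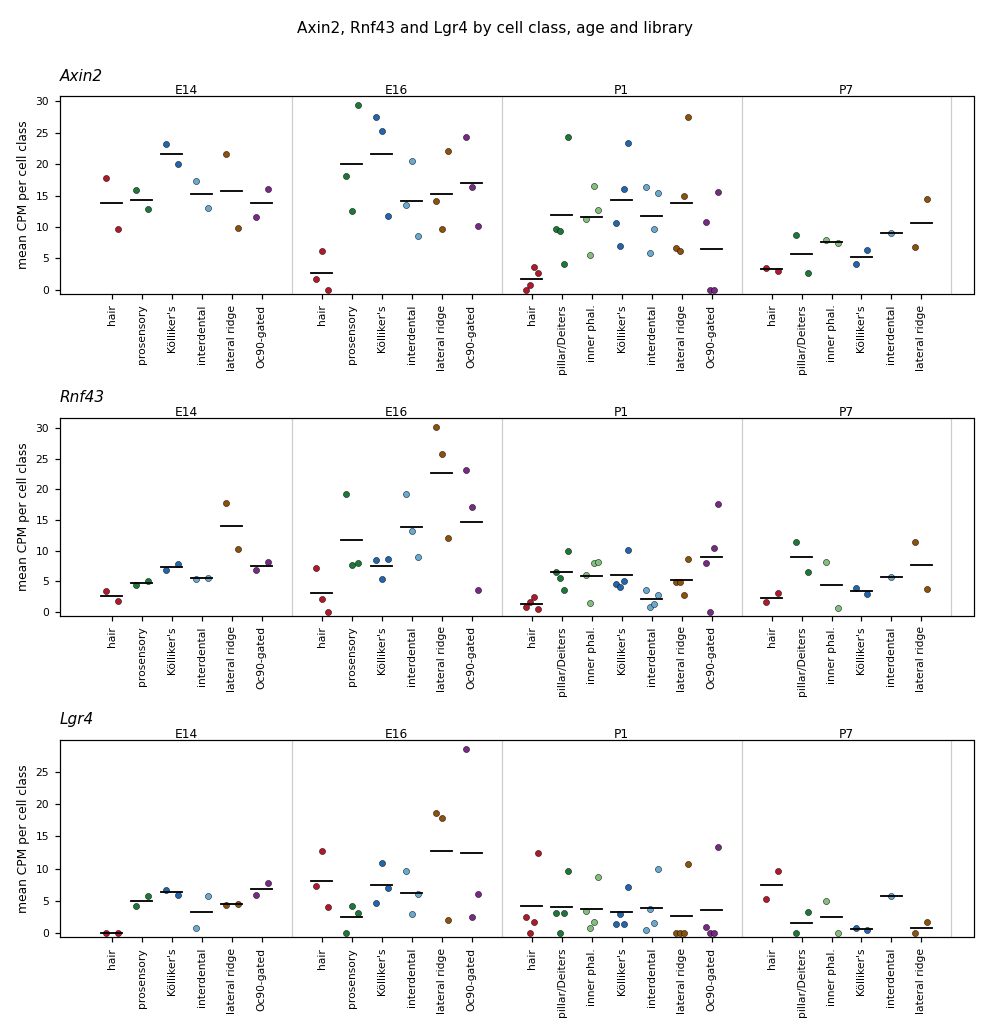
Mean CPM (vertical axis) of Axin2, Rnf43 and Lgr4 by cell class, with 1 point per library and a bar at the mean, in 4 blocks from E14 to P7. Axin2 is lowest in hair cells at E16 and P1, and at P1 all hair cell libraries lie at or below 3.59 CPM.

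Fzd9 (chromosome 5, 135248938 to 135251230, minus strand), a Frizzled receptor encoded by a single-exon gene, rose in prosensory cells and was then concentrated in pillar and Deiters' cells. Prosensory cells held 127 and 72.7 CPM at E14 and 189, 220 and 301 CPM at E16, against 8.50 and 15.6 CPM and 8.28, 11.9 and 8.91 CPM in KO. The differences from KO were 2.29 (SE 0.30, limma's adjusted p = 0.000273) and 3.63 (SE 0.35, limma's adjusted p = 2.14e-07). HCs held 70.5 and 72.7 CPM at E14 and 112, 122 and 165 CPM at E16, where prosensory cells differed from them by 0.78 (95% interval 0.04 to 1.51, limma's adjusted p = 0.147). The increase from E14 to E16 in prosensory cells was 1.19 (SE 0.27, limma's adjusted p = 0.0296). It was lost without E14 library 1 or 2 (1.55 and 0.83, adjusted p = 0.0632 and 0.523) or E16 library 2 (1.23, adjusted p = 0.111), with no filter on low values (adjusted p = 0.119), with summed UMIs (1.06, adjusted p = 0.0765) and with a stricter gate (1.10, adjusted p = 0.0573). Between these ages the prosensory cells also went from 712 to 774 CPM to 2244 to 2294 CPM of the pillar and Deiters' markers, from 218 to 248 CPM to 822 to 874 CPM of the inner phalangeal markers and from 253 to 423 CPM to 72.5 to 94.1 CPM of the cycling genes, and their part was not tested. The median of all genes moved by -0.13 in that comparison, and by -0.16 in KO between the same ages. Lateral and lowest tertiles of the E16 prosensory cells held 213, 301 and 456 CPM and 147, 154 and 166 CPM, which did not overlap and gave 0.94 (95% interval 0.20 to 1.69, limma's adjusted p = 0.185).

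Pillar and Deiters' cells held 837, 749, 644 and 787 CPM of Fzd9 at P1. Inner phalangeal cells held 113, 66.9, 109 and 173 CPM, KO 9.31, 5.88, 17.8 and 27.0 CPM and HCs 59.9, 93.8, 114 and 136 CPM. Without the cells that had an Fgf3 UMI, inner phalangeal cells held 91.5, 52.1, 84.5 and 120 CPM. Every pillar and Deiters' library was above every library of the other 3 classes. The difference from inner phalangeal cells was 2.67 (SE 0.35, limma's adjusted p = 6.34e-07), and SCs together were above KO by 4.17 (SE 0.38, limma's adjusted p = 1.88e-08) and above HCs by 1.99 (SE 0.38, limma's adjusted p = 0.000138). After thinning, 63.8% of pillar and Deiters' cells (exact 95% interval 60.2% to 67.2%) and 2.23% of KO cells (1.74% to 2.81%) had an Fzd9 UMI. Before thinning the shares were 93.2% and 6.52%, at medians of 5854 and 4895.5 UMIs.

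At P7 Fzd9 was lower and still set the same cells apart. Pillar and Deiters' cells held 504 and 362 CPM, inner phalangeal cells 37.1 and 25.4 CPM, HCs 16.3 and 25.1 CPM and KO 18.2 and 30.4 CPM. Inner phalangeal cells without an Fgf3 UMI held 17.4 and 24.2 CPM. SCs were above KO by 2.69 (SE 0.34, limma's adjusted p = 5.12e-05) and above HCs by 2.85 (SE 0.34, limma's adjusted p = 2.85e-06). From P1 to P7 Fzd9 in SCs fell by 0.96 on the log2 scale (SE 0.24, limma's adjusted p = 0.0190), and the call was lost with either P7 library left out (-1.15 without library 4 and -0.77 without library 5, adjusted p = 0.0876 and 0.252), with summed UMIs (-0.68, adjusted p = 0.0979) and with a stricter gate (-0.71, adjusted p = 0.0981). P7 glia-like cells had no Fzd9 UMI.

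Among 53 other genes of the pathway (receptors, R-spondins, transducers, secretion genes, inhibitors and inducible genes), some also differed between these classes. In prosensory cells against KO at E14, 40 were tested, 5 were higher and 3 lower (20.0%, against 6.57% of all tested genes), and the median difference was 0.15 against -0.01 over all genes. Kremen1, a co-receptor of Dickkopf inhibitors, was at 91.8 ± 11.6 CPM (SD, n = 2 libraries) in prosensory cells and 11.7 ± 5.66 CPM in KO (limma's adjusted p = 0.000195), and Fzd4, another Frizzled, at 42.4 ± 3.57 and 4.26 ± 0.624 CPM (limma's adjusted p = 0.000276). Tnfrsf19, a receptor of the tumour necrosis factor family that is induced by the pathway, was at 19.6 ± 10.8 and 120 ± 16.9 CPM (limma's adjusted p = 0.000752), and Dkk3, a Dickkopf family member, at 43.4 ± 9.38 and 138 ± 5.25 CPM (limma's adjusted p = 0.00180). Of 39 tested at E16, 7 were higher and 5 lower (30.8%, against 8.09%), and Kremen1, Fzd4, Tnfrsf19 and Dkk3 had the same directions. In P1 SCs 6 of 38 were higher than in KO and 2 lower (21.1%, against 11.3%), with a median of 0.19 against 0.04 over all genes. There Sp5, a transcription factor induced by the pathway, was at 39.1 ± 7.72 CPM (SD, n = 4 libraries) in SCs and 0.861 ± 0.615 CPM in KO (limma's adjusted p = 8.10e-09), while Tnfrsf19 was again lower, at 84.4 ± 29.8 and 220 ± 92.1 CPM (limma's adjusted p = 0.000349).

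Other pathway genes set pillar and Deiters' apart from inner phalangeal cells at P1, with 2 higher and 8 lower of 39 tested (25.6%, against 11.8% of all tested genes). The inducible genes Tnfrsf19 and Sp5 went against Fzd9 and Znrf3. Tnfrsf19 was at 10.3 ± 4.39 CPM (SD, n = 4 libraries) in pillar and Deiters' cells and 156 ± 66.5 CPM in inner phalangeal cells (limma's adjusted p = 6.29e-12), and Sp5 at 11.01 ± 4.63 and 64.5 ± 8.58 CPM (limma's adjusted p = 5.60e-09). Wls, which carries Wnt proteins to the cell surface, was at 36.2 ± 10.7 and 204 ± 27.3 CPM (limma's adjusted p = 4.69e-12). Frzb, a secreted inhibitor, was higher, at 114 ± 55.7 and 34.1 ± 12.1 CPM (limma's adjusted p = 0.00485).

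Against HCs, 20 of 38 pathway genes were higher and 5 lower in P1 SCs (65.8%, against 41.5% of all tested genes, of which 20.5% were higher), led by Sfrp1, a secreted inhibitor (1414 ± 381 and 134 ± 17.7 CPM, SD, n = 4 libraries, limma's adjusted p = 1.35e-15). From P1 to P7, 1 of 39 was higher and 5 lower in SCs (15.4%, against 9.31% of all tested genes). The lower ones included Dkk3, at 291 ± 70.0 CPM at P1 (SD, n = 4 libraries) and 33.1 ± 1.14 CPM at P7 (n = 2 libraries, limma's adjusted p = 1.06e-05), and Sp5, at 9.55 ± 9.36 CPM at P7 (limma's adjusted p = 0.0104). Sostdc1, an inhibitor of Wnt and BMP signals, was the one that was higher, at 123 ± 97.5 CPM from 1.23 ± 0.377 CPM (limma's adjusted p = 3.24e-05), with its P7 UMIs in inner phalangeal cells (95.7 and 358 CPM) and none in pillar and Deiters' cells. In KO 5 of 35 were higher and 12 lower between these ages (48.6%, against 18.5% of all tested genes), and Dkk3 fell there too, from 360 ± 113 to 65.5 ± 7.15 CPM (limma's adjusted p = 0.000408). Glia-like cells held 511 and 649 CPM of Sostdc1 at P7 and 48783 to 51210 CPM of the glial markers, of which SCs held 372 to 819 CPM, and their part in the SC value was not tested.

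Over 33 class means of the 4 ages, 9120 genes at a mean of at least 10 CPM and in no marker list were set beside each member whose highest class mean reached 20 CPM. The genes most like Lgr5 were Rnf165 (Pearson's r = 0.91), Gm266 (0.85) and Dok5 (0.85). Those most like Fzd9 were Ccnt2 (0.87), Etv1 (0.84) and Slitrk6 (0.84). Rspo2 was most like Pdgfc (0.92), Tmem132c (0.90) and Zfp521 (0.90), and Rspo3 like Sema3c (0.76). Lgr6 was most like Gpr37 (0.86), Znrf3 like Notch3 (0.85), Axin2 like Cdh11 (0.82) and Rnf43 like Arhgap5 (0.81). The 33 class means include P7 glia-like and mesenchyme-like cells, and the highest Axin2 mean (45.04 CPM) is that of the 22 mesenchyme-like cells. These are descriptions over class means that share libraries and depth, not tests.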

How the data were processed

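The authors aligned 10x Chromium reads to mm10 with Cell Ranger 2.1.1 and filtered and normalized cells in Seurat 2.0. The deposited values are natural logs (ln) of 1 plus 10000 times a gene's share of a cell's UMIs, 1 table per age, with each cell's library in its name. Taking the smallest value of each cell as 1 UMI, 100% of values above 0 were within 0.02 of a whole number of UMIs. As the deposited unit is a natural log and not a count, no count model was used. Positions are from GENCODE vM21 on GRCm38, the mm10 assembly. Opposite-strand genes overlap Lgr5, Rspo3 and Axin2, and whether counting used strand is not given in the sources used here.

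Genes of each marker list were z-scored within an age and averaged per cell. A cell took the class with the highest score when that was above 0.5, led the next by more than 0.5, and 0.333 of the list was detected (4 genes for glia and mesenchyme). The score and the lead were set after the scores had been seen. The members, marker lists and pathway list were chosen with earlier results of these data known. Lateral prosensory and medial KO cells are the upper tertile of a second score, and "other" the lower. Scrublet (expected rate 0.06) called 0.0355% to 2.69% of a library as doublets, which were kept. It called under 0.5% in 5 of 11 libraries (both at E14, E16 libraries 1 and 2 and P1 library 4), where doublets are nearly unscreened, and 0.143% of the 5598 cells of the last of these, where it did not work.

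Class means with at least 5 cells per library, as log2(CPM + 10), entered limma (version 3.58.1, R 4.3.3) with a mean trend, library as a block within an age, and Benjamini-Hochberg adjustment over all genes tested (mean of at least 5 CPM) at 0.05. Differences are on that scale, which understates those of weakly expressed genes. Fits at E14 and P7 rest on 2 libraries with 3 to 7 residual degrees of freedom. Within an age, p-values measure how differences between classes vary from library to library, pooled over the classes of the fit. Between ages, they measure the spread between libraries of 1 class. The text names all 9 members and, of the pathway list, up to 3 called genes with the lowest adjusted p per direction in a comparison. Alternatives were a pseudocount of 2 CPM, no filter or a filter at 20 CPM, summed UMIs, a stricter gate (lead of 1), 20 cells per class, called doublets left out, the block dropped or added, and each library left out. Cells were thinned to 1500 UMIs before shares with a UMI were counted, with exact 95% (Clopper-Pearson) intervals.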

Additional observations from a re-analysis of the deposited data

Results flagged for a closer look

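P1 library 4 stood apart from libraries 1 to 3 in 5 of the values singled out by a gap to the other libraries. These were Lgr4 over all cells (7.79 CPM against 1.46 to 2.13 CPM), Znrf3 over all cells (10.09 against 5.08 to 5.62 CPM), in inner phalangeal cells (18.29 against 5.10 to 5.99 CPM) and in KO (5.629 against 3.27 to 3.46 CPM), and Rnf43 in KO (10.16 against at most 5.03 CPM). P1 library 3 stood apart for Lgr5 in pillar and Deiters' cells (93.9 against 64.6 to 65.5 CPM) and for Rspo2 in interdental cells (114.5 against 85.7 to 89.4 CPM). Each is a lone library in 4 whose gap to the next was most of the range of the 4. The rule was applied to 65 sets of 4 libraries, and chance alone flags about 1 in 20.

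The Lgr5 difference between SCs and KO changed from P1 to P7 by -2.756 on the log2 scale, and that between SCs and HCs by -1.911, both by a test of the change itself (limma's adjusted p = 3.60e-05 and 0.00108).

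Some members were seen in P7 cells that no comparison used. Mesenchyme-like cells (22 cells) held Axin2 at 45.04 CPM (5 UMIs), Rspo3 at 54.88 CPM (5 UMIs, all in library 5) and Fzd9 at 34.29 CPM (4 UMIs, all in library 5). Glia-like cells (105 cells) held Lgr5 at 12.74 CPM (4 UMIs), which is near the level in P7 SCs.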

How the results depend on the processing

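Among refits of the called member differences, 317 kept direction and call, 46 kept direction only and none reversed, and 14 at E14 and P7 had no test and kept direction; those that lost a call are given beside their results. Counts of called genes moved with these settings. With 20 cells per class, P1 SCs against KO gave 2163, P1 pillar and Deiters' against inner phalangeal cells 2179 and P1 medial against other KO 152. At P1 this setting leaves out the Oc90-gated cells of libraries 2 and 3 (14 and 9 cells), which otherwise enter the pooled spread. Without a filter on low values P7 SCs against KO gave 356, P1 medial against other KO 37, KO E14 to E16 582, KO E16 to P1 387 and prosensory cells E14 to E16 160, with more genes tested, and with a filter at 20 CPM KO P1 to P7 gave 1159 and SCs P1 to P7 656, with fewer genes tested. Summed UMIs gave 1153 for P7 SCs against KO, 559 and 446 for lateral against other prosensory cells at E14 and E16 and 102 for P1 medial against other KO. A stricter gate gave 188 and 192 for the lateral comparisons, 7 for the medial one and 587 for KO E14 to E16. A pseudocount of 2 CPM gave 38 for the medial one. For the gate, cell number, summing and pseudocount the cause was not tested.

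Without the library block within an age, P1 SCs against KO gave 771, P7 SCs against KO 458, the lateral comparisons 179 and 166, pillar and Deiters' against inner phalangeal cells 714 and medial against other KO 10, and all 24 member calls held. Library numbers are not shared between ages by any stated litter or day, so they were not taken as pairs. Correlations of same-numbered libraries were -0.178 to 0.0643 and those of differently numbered ones -0.148 to 0.221. Values were centred within each age, which forces mirror-image correlations for the 2 E14 libraries, so these values cannot decide whether libraries are paired. With a replicate block between ages, KO E14 to E16 gave 2916 and prosensory cells E14 to E16 1504, and of 5 member calls Rspo3 in KO E16 to P1 (-0.75, limma's adjusted p = 0.0678) was lost. No paired analysis was possible between P1 and P7 because they share 1 number.

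Leaving out 1 library gave 453 to 881 called genes for E16 prosensory cells against KO, 1141 to 2363 against HCs, 89 to 364 for the E16 lateral comparison, 856 to 1024 for P1 SCs against KO, 3669 to 4337 against HCs, 927 to 1028 for pillar and Deiters' against inner phalangeal cells, 10 to 46 for the medial comparison, 170 to 2760 for KO E14 to E16, 202 to 974 for KO E16 to P1, 565 to 2571 for KO P1 to P7, 100 to 1201 for prosensory cells E14 to E16 and 310 to 1221 for SCs P1 to P7. At E14 and P7, leaving 1 out within an age leaves no residual degrees of freedom. Lgr4, Rnf43 and Lgr6 before P1 rest on few UMIs, so a difference there could be missed. The Lgr6 and Rspo3 calls made only without the filter on low values were not refitted. A stricter gate moved 13 of 174 levels of at least 10 CPM by over 1.5 times (ratios of 0.311 to 2.65): Lgr5 and Fzd9 in P7 lateral ridge cells, Rnf43 in the lowest lateral tertile of E16 prosensory cells, and 10 in KO tertiles (Axin2 and Fzd9 at E14, Lgr4 and Znrf3 at E16, Lgr5 at P1, Lgr5 and Fzd9 at P7).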
